A study of Mus musculus with 7 samples.

Results

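Ihh was 1 of 103 genes for which the contact between the gene start and an enhancer region was deposited, in 5 gene tables of 1 library each. Its row was taken by symbol from each table, and in the 7 contact maps the stretch that holds it was followed, 20 of 1000 bins of 10 kb. Contacts were counted by capture Hi-C, in which chromatin is cut with DpnII, religated and enriched for a region of 10 Mb around Epha4 on mouse chromosome 1. The limb bud libraries came from E11.5 embryos, with fore- and hindlimb buds of 10 embryos per library, and their titles also read Distal. They were Inv1DelCTCF, which is Inv1 with a further deletion named after CTCF, Inv1, Inv2, Inv3 and Inv4, which carry serial CRISPR/Cas9 inversions, and WT. The seventh library was Inv1 ESC, embryonic stem cells with the Inv1 inversion. The labels give the same entry for the cell type of every library (G4 ESC, a mouse embryonic stem cell line), so the stem cell library was told apart by its title and the design text. They name no strain, and they do not say whether an embryo carried 1 or both chromosomes inverted. There was 1 library per condition, so differences below are between libraries, with no replicate check and no p-value.

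Ihh encodes Indian hedgehog, a secreted ligand of the hedgehog family. Hedgehog ligands bind the receptor Patched, which frees Smoothened to signal to the Gli transcription factors. Ihh is known as the ligand of growing cartilage, where it paces the division and maturation of chondrocytes together with parathyroid hormone-related protein, while its paralog Shh patterns the early limb bud. Epha4 encodes an ephrin receptor of the limb bud and lies in a large domain of its own, next to the gene-dense stretch that holds Ihh.

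The Ihh promoter is shown because its contact is what the tables report, and because the assay reads contact from DpnII cut sites, which have the letters GATC. RefSeq gives it on the minus strand of build GRCm38.p6 at chr1:74951623-74951922, with 250 bases before and 50 after the start. All map positions below are in mm9, the build of the files, and are not interchangeable with these. The promoter of Nhej1, the next gene in the tables, stands beside it as a contrast, at chr1:75125177-75125476 of the same build and strand. Capitals mark GATC.
Ihh: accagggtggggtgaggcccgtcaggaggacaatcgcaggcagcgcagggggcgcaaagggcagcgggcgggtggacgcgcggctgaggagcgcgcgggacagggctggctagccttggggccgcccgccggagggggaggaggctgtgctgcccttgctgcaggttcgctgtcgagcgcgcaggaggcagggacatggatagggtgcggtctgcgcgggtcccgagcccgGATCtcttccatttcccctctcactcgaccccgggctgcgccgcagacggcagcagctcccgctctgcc
Nhej1: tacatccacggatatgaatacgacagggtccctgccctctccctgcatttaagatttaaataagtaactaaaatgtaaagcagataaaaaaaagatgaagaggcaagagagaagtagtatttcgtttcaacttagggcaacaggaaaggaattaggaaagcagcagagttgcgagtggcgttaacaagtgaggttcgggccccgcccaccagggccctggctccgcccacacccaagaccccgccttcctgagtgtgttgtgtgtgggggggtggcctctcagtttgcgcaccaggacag
The Ihh promoter had 1 GATC, at position 232 from its 5′ end, and that of Nhej1 had 0. The maps give contact per bin of 10 kb, far longer than these windows. Whether the GATC of a window bears on the contact values was not tested. GATC, which reads the same on both strands, was found in 48.0% of 32851 RefSeq promoters of this length. The Ihh window held 30 CG dinucleotides and 72.7% G or C, against medians of 7 and 52.7% over all promoters. The letters TATAAA were found in neither promoter on either strand, and in 13.6% of all promoters.

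In the gene tables the contact of Ihh with the enhancer region was high for Inv1 and Inv2 and low for Inv3, Inv4 and WT. Its scaled contact was 6.31 for Inv1, 8.85 for Inv2, -0.0525 for Inv3 and 1.03 for Inv4, against 0.260 for WT. Inv1 and Inv2 stood far above the rest, and Inv3 was at about 0. A count of reads cannot be negative, and the maps of Inv2, Inv3 and Inv4 show a subtraction, described with them below. On the scale of log2(value + 0.5), with negative values set to 0, Ihh stood at 3.16 relative to WT for Inv1, 3.62 for Inv2, -0.60 for Inv3 and 1.01 for Inv4. The pseudocount of 0.5 understates changes from values as low as that of WT.

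The tables have separate scales set by the authors, so the share of all genes past the same fold stands beside each ratio. Ratios over 2-fold above WT were found for 35.9% of the 103 genes with Inv1, 19.4% with Inv2, 45.6% with Inv3 and 52.4% with Inv4. Ratios over 2-fold below WT were found for 3.88% with Inv1, 16.5% with Inv2, 10.7% with Inv3 and 6.8% with Inv4. Of the 103 genes, 15 share all their values with the gene before them, so shares and ranks count some values more than once. Ihh was past 2-fold above WT for Inv1, Inv2 and, narrowly, Inv4. Among the 103 ratios that of Ihh ranked 13 for Inv1, 3 for Inv2, 88 for Inv3 and 54 for Inv4. Centred on the median gene of each table, its log2 ratio was 2.54 for Inv1, 3.62 for Inv2, -1.41 for Inv3 and -0.072 for Inv4. Ihh was thus well above the median gene with Inv1 and Inv2, close to it with Inv4 and below it with Inv3, and the higher value of Inv4 cannot be told apart from the scale of its table.

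Ranks within a table do not change with its scale. Counted from the top, Ihh had rank 17 for Inv1, 5 for Inv2, 91 for Inv3 and 65 for Inv4, against 69 for WT. It reached 27.5% of the highest gene in Inv1, which was Ptprn, a phosphatase-like protein of secretory granules, at 22.99. In Inv2 it reached 44.2% of Nhej1, a DNA end-joining factor, at 20.04. In Inv4 it was at 3.05% of Prkag3, an AMP-activated kinase subunit, at 33.9, and in WT at 3.38% of Epha4, at 7.68. In Inv3 the highest gene was Fev, a transcription factor of serotonergic neurons, at 36.4, only 4 genes before Ihh in the table.

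In order of level the libraries were Inv2, Inv1, Inv4, WT and Inv3. The spread of differences was read from the first and last 18 genes of the tables, which lie far from Ihh in table order. Some of them share all their values with a neighbour, so they are not all separate measurements. The step of 2.54 between Inv2 and Inv1 was 3.53 SD of the same difference over these 36 genes, and the step of 5.28 between Inv1 and Inv4 was 8.45 SD. The steps of 0.773 from Inv4 to WT and 0.312 from WT to Inv3 were 0.474 and 0.241 SD. The 36 genes include Epha4 and Mir6352, which carried much of that spread, and without these 2 the last steps were 0.958 and 0.456 SD. WT therefore did not differ in Ihh from Inv4 or from Inv3 beyond the spread of far genes, while Inv2 and Inv1 stood apart from these 3 by more than it. The step between Inv2 and Inv1 also exceeded that spread in deposited units. The tables have separate scales, however, and the part of scale and of the WT subtraction in this step was not tested. Inv4 was above Inv3 by 1.08, which is 1.08 SD, or 1.13 SD without the 2 genes. The spread of genes with contact as high as in Inv2 and Inv1 was not measured.

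**Figure D1:**
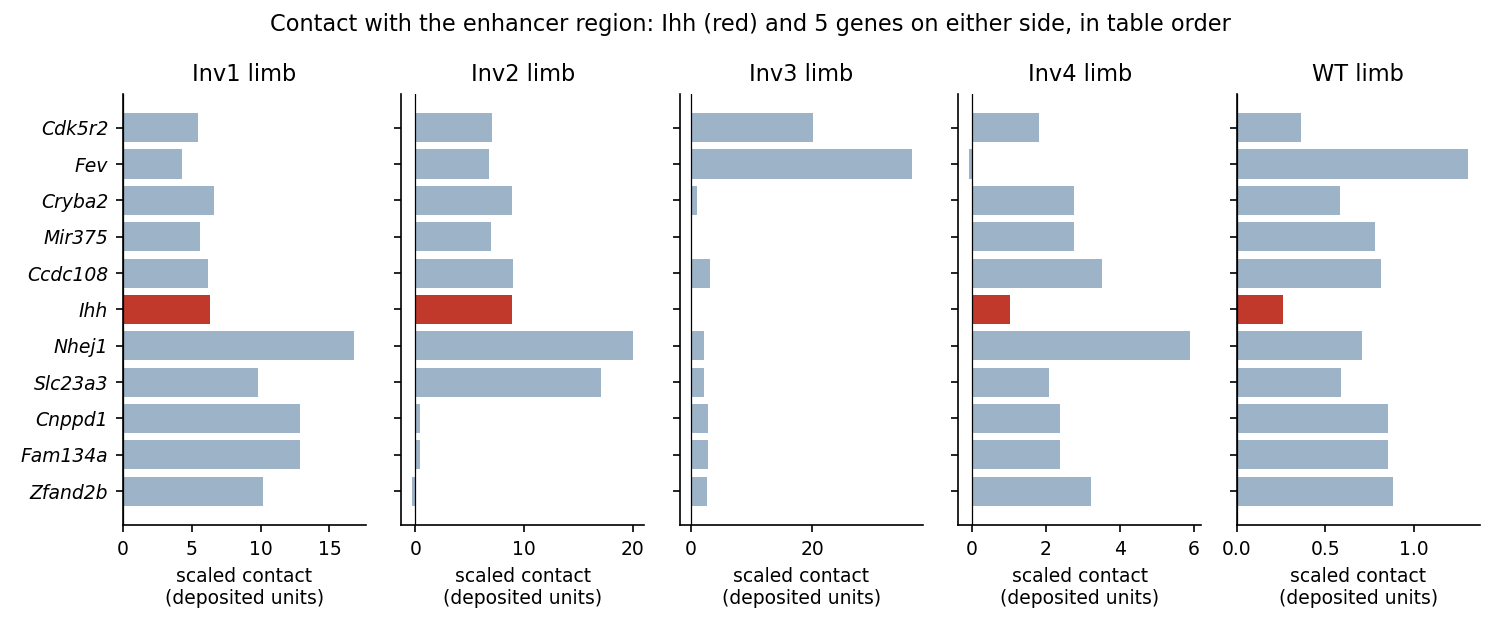
Scaled contact with the enhancer region (deposited units, each panel with its own axis from 0) for Ihh and the 5 genes before and after it in table order, in Inv1, Inv2, Inv3, Inv4 and WT limb buds, 1 library each. Ihh, in red, is at 6.31 in Inv1 and 8.85 in Inv2, and is the lowest of the 11 genes in Inv3 and WT.

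The table neighbours of Ihh span the drops in contact of Inv3 and Inv2. The 6 genes Cryba2, Mir375, Ccdc108, Ihh, Nhej1 and Slc23a3, lie between the gene where contact drops in Inv3 (after Fev) and the one where it drops in Inv2 (before Cnppd1). Cryba2 encodes an eye lens crystallin, Mir375 a microRNA of endocrine cells, Ccdc108 (now Cfap65) a protein of cilia and flagella, and Slc23a3 a member of a transporter family. Ratios over 2-fold above WT were found for 6 of 6 with Inv1, 6 with Inv2, 3 with Inv3 and 6 with Inv4, beside 35.9%, 19.4%, 45.6% and 52.4% of all 103 genes. The count of Inv3 was thus near the share of all genes. Mir375 alone was over 2-fold below WT, with Inv3, where 10.7% of all genes were. Their contact spanned 5.62 to 16.8 for Inv1, 6.98 to 20.04 for Inv2, -0.0525 to 3.16 for Inv3 and 1.03 to 5.90 for Inv4, against 0.260 to 0.814 for WT. These genes were delimited after the values were seen. Ihh was the lowest of the 6 in Inv3, Inv4 and WT.

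At Nhej1, the next gene in table order, contact was much higher than at Ihh. The 2 promoters are not close to each other: in GRCm38.p6 their windows start at 74951623 for Ihh and 75125177 for Nhej1. The part of their position in the difference was not tested. Nhej1 had 16.8 for Inv1, 20.04 for Inv2, 2.07 for Inv3 and 5.90 for Inv4, against 0.709 for WT. The value of Ihh was 37.6% of that of Nhej1 for Inv1 and 44.2% for Inv2, against 36.7% for WT. Both genes were far higher in Inv1 and Inv2 than in WT. The WT values, 0.260 and 0.709, were near the floor, so the WT ratio is imprecise. The far genes of WT, with Epha4 among them, had a median of 0.191 and an SD of 1.53. For Inv4 Ihh was at 17.5% of Nhej1, and for Inv3 Ihh was at about 0. Slc23a3, the next gene, had 9.78 for Inv1, 17.03 for Inv2, 2.08 for Inv3 and 2.10 for Inv4, against 0.591 for WT. Ccdc108, just before Ihh, had 6.21 for Inv1, 8.95 for Inv2, 3.16 for Inv3 and 3.53 for Inv4, against 0.814 for WT. It was close to Ihh with Inv1 and Inv2 and above it with Inv3, Inv4 and WT. Beyond the Inv2 breakpoint Cnppd1 and Fam134a, which share all their values, had 12.9 for Inv1 and 0.438 for Inv2. Before the Inv3 breakpoint Cdk5r2, which encodes a regulatory partner of Cdk5, had 20.05 for Inv3 and Fev 36.4, while Cryba2 had 1.03 and Ihh about 0.

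Ihh minus the median of these 10 neighbours was -1.89 for Inv1, 1.81 for Inv2, -2.75 for Inv3 and -1.54 for Inv4, against -0.539 for WT. The positive value of Inv2 rests on the window: 3 of the 10 genes lie beyond the Inv2 breakpoint, and with 3 neighbours on either side the difference was -0.0875. All 10 neighbours were above Ihh in Inv3 and WT, 9 in Inv4, 6 in Inv1 and 4 in Inv2. In each of the 6 genes of the stretch Inv2 was highest, followed by Inv1 and then Inv4. The lowest library was Inv3 for Ihh and Mir375, and WT for the other 4.

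The genes most like Ihh over the 5 tables, by Euclidean distance of log2(value + 0.5), were Mir375 (1.39), Cryba2 (2.01), Atg9a and Ankzf1 (2.72 each) and Slc23a3 (2.76). The median distance over the 102 other genes was 5.11. Atg9a, an autophagy membrane protein gene, and Ankzf1 share all their values and lie beyond the Inv2 breakpoint. They had 9.78 for Inv1, 1.64 for Inv2, 0.441 for Inv3 and 2.93 for Inv4, against 0.652 for WT, and so differed from Ihh most in Inv2. Ccdc108, the immediate neighbour, came sixth at 3.29, with higher values than Ihh in Inv3 and Inv4.

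Of 20 genes listed for hedgehog signalling, Ihh and Stk36 are in the tables. Stk36 is the mouse counterpart of the Drosophila kinase fused, which acts downstream of hedgehog in the fly. Its values, which it shares with its neighbour Rnf25, were 1.66 for Inv1, 0.917 for Inv2, 5.67 for Inv3 and 13.6 for Inv4, against 0.480 for WT. Stk36 was over 2-fold above WT in Inv1, Inv3 and Inv4, and was highest in the inversions where Ihh was low. Of Wnt6 and Wnt10a, which encode Wnt ligands, and Ihh, 3 were over 2-fold above WT with Inv1, 3 with Inv2, 2 with Inv3 and 1 with Inv4, beside the same shares of all genes (35.9%, 19.4%, 45.6% and 52.4%). The one not above WT in Inv3 was Ihh, and Ihh was the one above WT in Inv4, by a ratio at the limit of 2-fold. In Inv3 Wnt6 was at 15.4 and Wnt10a at 16.6.

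The maps were used to follow the stretch that holds Ihh, and to include Inv1DelCTCF and Inv1 ESC, for which no gene table was analysed. They come from the same libraries as the tables and are not independent of them. Recovered read pairs numbered 3903613 to 5155259 in the Inv1, Inv1DelCTCF, Inv1 ESC and WT maps. The Inv2, Inv3 and Inv4 maps hold values below 0, at 28.8% to 31.3% of listed bin pairs. Of these negative pairs 72.7% to 73.3% lay within 1% of a fixed multiple of the WT map (0.423 for Inv2, 0.369 for Inv3 and 0.334 for Inv4), so a weighted WT map had been subtracted. The labels do not describe that step, and no counting interval is given for these libraries. The other 4 maps hold no negative values. The part of this unequal processing in differences between inversions, or between an inversion and WT, was not tested. Mutant maps are written in the order of the rearranged chromosome and were turned back to WT order. After turning, contact with the rest of the Epha4 domain jumped at each left limit between adjacent bins. The bin inside the inversion had 51.2% to 56.9% of its contacts there, against 2.23% to 5.20% for the bin outside it, over the 6 mutant maps.

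The bin of the Ihh start was not settled. The tables give no positions, and the gene reference is of another build. Genes were set on map bins in table order by their contact with windows of the moved sequence, and the 10 best of 103 windows put Ihh in 6 different bins starting at 74.99 to 75.10 Mb. Values are therefore given for the whole stretch chr1:74930001-75130000, which is bounded by the left limits of Inv3 and Inv2, with the range over its 20 bins of 10 kb. If each of its neighbours had a bin of its own, Ihh would lie between 74.96 and 75.11 Mb. The moved part is chr1:75620001-75900000, which every inversion separates from the rest of the Epha4 domain at chr1:75900001-77510000.

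The inversions move the stretch and the moved part in different ways. Inv1 and Inv2 leave the stretch in place and bring the moved part up to it. The gap between them was 150 kb in Inv1 and 0 kb in Inv2, against 490 kb in WT. Inv3 and Inv4 turn both together, so that the gap to the moved part stayed at 490 kb, while the gap to the rest of the Epha4 domain was 0 kb in Inv3 and 140 kb in Inv4, against 770 kb in WT.

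In Inv1 and Inv2 the contact of the stretch with the moved part was many times that in WT. The moved part took 10.4% of all contacts of the stretch in Inv1 (95% counting interval 10.2% to 10.5%) and 16.7% in Inv2, against 0.949% in WT (0.906% to 0.995%). That is 10.9-fold and 17.6-fold the WT share. Over the single bins the share was 7.78% to 16.8% in Inv1 and 9.87% to 43.5% in Inv2, against 0.759% to 1.13% in WT, so every bin of both was above every WT bin, whichever of them holds Ihh. Within 74.96 to 75.11 Mb the ranges were 8.73% to 13.1% in Inv1, 11.02% to 23.7% in Inv2 and 0.789% to 1.13% in WT.

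These differences remained after division by distance. Contact divided by the mean of all usable bin pairs at the same distance in the same map was 1.51 in Inv1 and 1.33 in Inv2, against 0.292 in WT. On this scale the 2 inversions were 5.16-fold and 4.56-fold above WT, and Inv2 was no longer above Inv1. The share was highest at the right end of the stretch, in the bin at 75.12 Mb, next to the Inv2 limit. In the first bin it was 7.90% in Inv1 and 10.1% in Inv2.

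In Inv3 and Inv4 the contact with the moved part was far below that in Inv1 and Inv2, and closer to WT. The share was 1.33% in Inv3 and 1.91% in Inv4, against 0.949% in WT, with 0.698% to 2.96% over 19 bins in Inv3 and 1.23% to 2.50% over 19 bins in Inv4, against 0.759% to 1.13% over 20 bins in WT. It was above WT in 14 of 19 bins in Inv3 and in 19 of 19 in Inv4. The bin at 75.10 Mb holds no values in these 2 maps. The difference to WT was 0.376 percentage points in Inv3 and 0.964 in Inv4. For 140 blocks of the same size and gap elsewhere outside the inversions, the same difference had an SD of 0.358 in both. It ran from -0.312 to 1.78 in Inv3 and from 0.0503 to 1.87 in Inv4. Every such block was thus above WT in Inv4, so a share above WT was not particular to the stretch there. Neither difference of the stretch stood outside these ranges. The blocks overlap, however, and were not matched to the stretch in their WT share. The spread for blocks with a WT share as low as 0.949% was not measured. The highest bin of Inv3 was the first of the stretch, which adjoins its breakpoint.

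**Figure D2:**
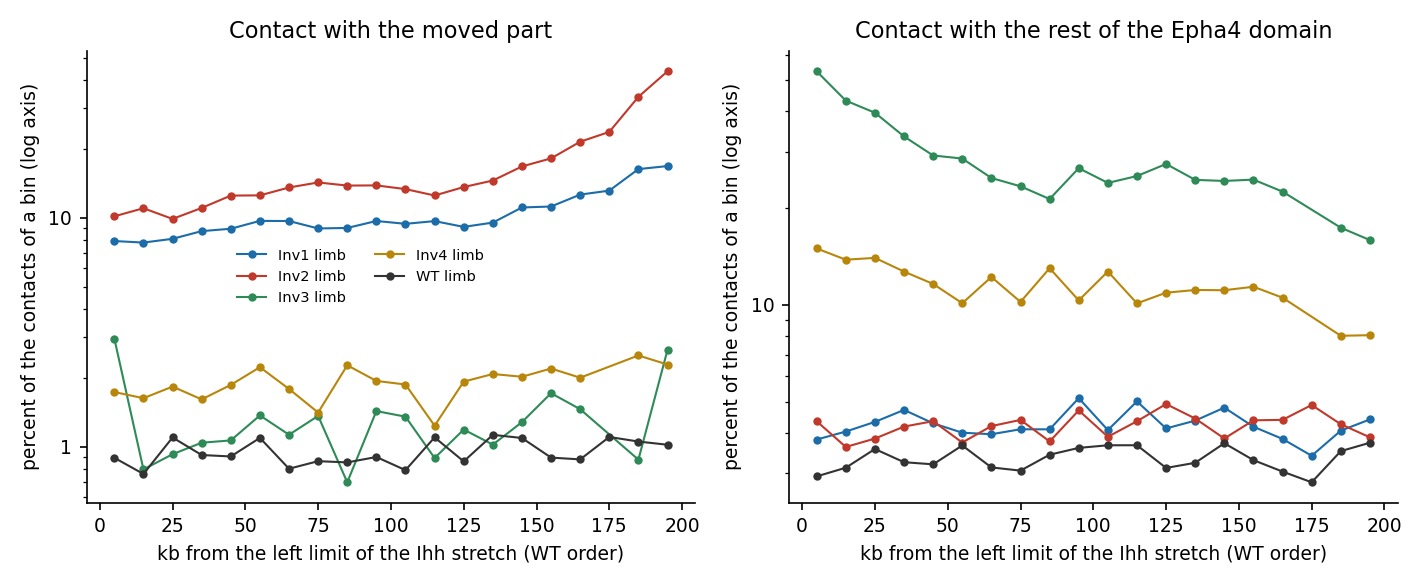
Percent of the contacts of each 10 kb bin (log axis) that fall on the moved part, left, and on the rest of the Epha4 domain, right, along the stretch that holds Ihh, in kb from its left limit and in WT order. Each line is 1 limb bud library (Inv1, Inv2, Inv3, Inv4, WT): Inv1 and Inv2 are over 2-fold above WT in 20 of 20 bins for the moved part and in 0 for the rest of the domain, and Inv3 and Inv4 in 19 of 19 bins for the rest of the domain and in 2 and 12 for the moved part.

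In Inv3, and less so in Inv4, the stretch was in contact with the other side of the Epha4 domain. The rest of the domain took 27.9% of the contacts of the stretch in Inv3 and 11.4% in Inv4, against 3.33% in WT (3.25% to 3.41%), which is 8.37-fold and 3.43-fold. In Inv1 the share was 4.24% and in Inv2 4.22%, or 1.27-fold WT in both. Over single bins it was 15.9% to 53.4% in Inv3 and 8.02% to 15.0% in Inv4, against 2.81% to 3.73% in WT. In both inversions the share was highest in the first bin of the stretch, which lies nearest to the domain after the inversion. It was lowest at the other end, in the bin at 75.12 Mb in Inv3 and 75.11 Mb in Inv4.

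Relative to the mean at the same distance, contact with the rest of the domain was 1.01 in Inv3 and 0.540 in Inv4, against 0.463 in WT. These are averages over the domain. From its first 200 kb piece to the last, the value rose from 0.533 to 3.60 in Inv3 and from 0.284 to 1.15 in WT. The averaged Inv3 value was 2.18-fold WT on this scale and that of Inv4 1.17-fold, so most of the difference of Inv4 to WT was not present on this scale. The part of the WT subtraction in the distance means was not tested. The gene tables report contact with the enhancer region, and Ihh was at -0.0525 there in Inv3.

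**Figure D3:**
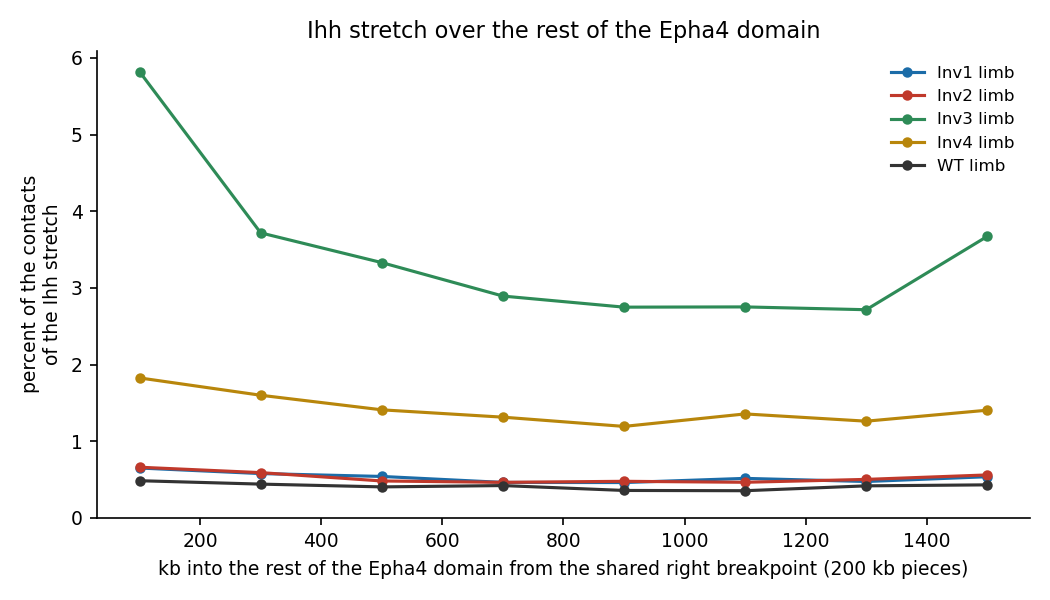
Percent of the contacts of the Ihh stretch that fall on successive 200 kb pieces of the rest of the Epha4 domain, in kb from the shared right breakpoint, for Inv1, Inv2, Inv3, Inv4 and WT limb buds (1 library each). Inv3 runs from 5.82% in the first piece to 3.67% in the last and is above the other libraries in all 8 pieces.

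Along the domain, the contact of the stretch in Inv3 was 5.82% with the first 200 kb, 3.72% with the second and 2.72% with the one before last. It was 3.67% with the last, and so higher at the far end than in the piece before it. Inv4 had 1.40% against 1.26% in these last 2 pieces, Inv1 0.536% against 0.474%, Inv2 0.560% against 0.502%, and WT 0.430% against 0.417%. The last piece was thus the higher of the 2 in all 5 libraries, by a small margin in WT. Beyond the domain, up to the end of the map, the stretch had 13.03% of its contacts in Inv3 and 8.92% in Inv4, against 3.83% in WT. The part of the WT subtraction in these values was not tested.

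Contact of the stretch with the sequence across the adjoining breakpoint was far lower in Inv3 and Inv2 than in WT. A weighted WT map had been subtracted in Inv2, Inv3 and Inv4, and its part in these differences to WT was not tested. With the sequence between the Inv4 and Inv3 limits (chr1:74790001-74930000), which lies next to the stretch in WT, the share was 0.855% in Inv3, while it was 7.90% in Inv1, 8.92% in Inv2 and 7.48% in Inv4, against 8.33% in WT. With the sequence between the Inv2 and Inv1 limits (chr1:75130001-75280000), on its other side, it was 0.776% in Inv2, while it was 8.70% in Inv1, 8.67% in Inv3 and 10.5% in Inv4, against 10.5% in WT. Contact of the stretch with itself, counted from both ends of each pair, made up 49.9% for Inv1, 49.4% for Inv2, 38.6% for Inv3 and 43.1% for Inv4, against 53.2% for WT. It was thus lowest in Inv3, where the stretch joined the Epha4 domain. All shares of a library are parts of the same whole, so a larger share elsewhere lowers this one. In Inv3 and Inv4 the bin at 75.10 Mb holds no values, so its pairs within the stretch are missing there.

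**Figure D4:**
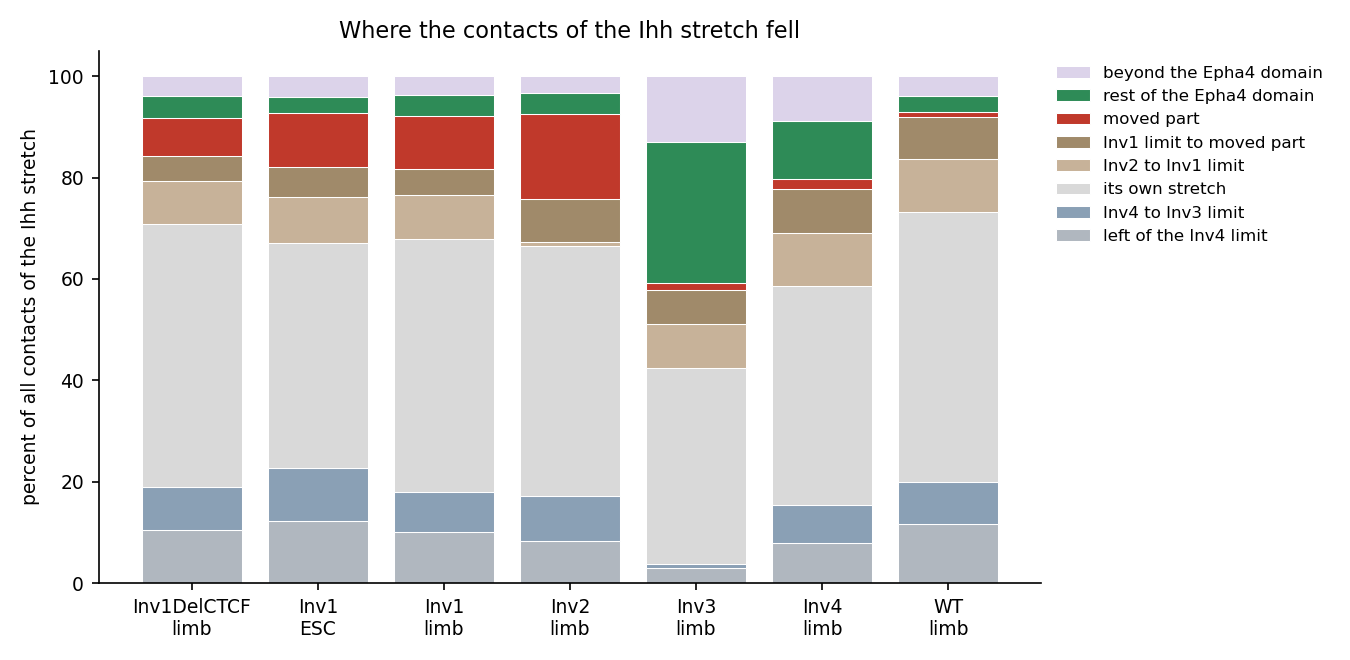
All contacts of the bins of the stretch that holds Ihh, split by where they fall, as stacked percentages for Inv1DelCTCF, Inv1 ESC, Inv1, Inv2, Inv3, Inv4 and WT (1 library each, regions in WT order). Pairs within the stretch are counted from both ends. The red segment, the moved part, is 10.4% in Inv1 and 16.7% in Inv2, against 0.949% in WT, and the green segment, the rest of the Epha4 domain, is 27.9% in Inv3.

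On the Inv1 chromosome, the deletion named after CTCF went with less contact between the stretch and the moved part. The share was 7.37% in Inv1DelCTCF (7.22% to 7.52%), against 10.4% in Inv1, a ratio of 0.711 (95% counting interval 0.693 to 0.730). It was lower in 20 of 20 bins, with ratios of 0.656 to 0.797. The share remained 7.76-fold that of WT. With the rest of the Epha4 domain the share was 4.36% in Inv1DelCTCF and 4.24% in Inv1, a ratio of 1.03 (0.994 to 1.07). Relative to the mean at the same distance, contact with the moved part was 1.07 in Inv1DelCTCF, against 1.51 in Inv1 and 0.292 in WT. The labels do not give the extent of the deletion.

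In Inv1 ESC the total was close to that of Inv1 limb buds, but its course along the stretch differed. The moved part took 10.7% of the contacts of the stretch in Inv1 ESC (10.5% to 10.9%), against 10.4% in Inv1 limb buds, a ratio of 1.03 (1.01 to 1.06). Over the first 10 bins of the stretch the share was 7.57% in Inv1 ESC and 8.84% in Inv1 limb buds, a ratio of 0.857 (0.830 to 0.884). Over the last 10 bins it was 13.8% in Inv1 ESC and 11.9% in Inv1 limb buds, a ratio of 1.17 (1.13 to 1.21). These intervals cover counting error only. For the 140 blocks outside the inversions, Inv1 ESC minus WT limb buds had an SD of 0.911 percentage points, from -2.22 to 2.44. The same spread against Inv1 limb buds was not measured, so the differences along the stretch are not shown to exceed it.

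As a ratio, the difference was greatest in the first bin, at 0.556. The first 3 bins of the stretch had 4.39%, 4.80% and 7.00% in Inv1 ESC, against 7.90%, 7.78% and 8.08% in Inv1 limb buds. The stem cell share was thus far lower in the bins up to 74.94 Mb than in the bin at 74.95 Mb, and the limb bud share hardly differed between them. Since the position of Ihh within the stretch is not settled, whether its own bin was above or below the limb bud value cannot be told. With the rest of the Epha4 domain the share was 3.02% in Inv1 ESC and 4.24% in Inv1 limb buds, a ratio of 0.713 (0.687 to 0.740). No WT stem cell map was analysed here, so differences of tissue that do not depend on the inversion cannot be told apart from those that do.

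**Figure D5:**
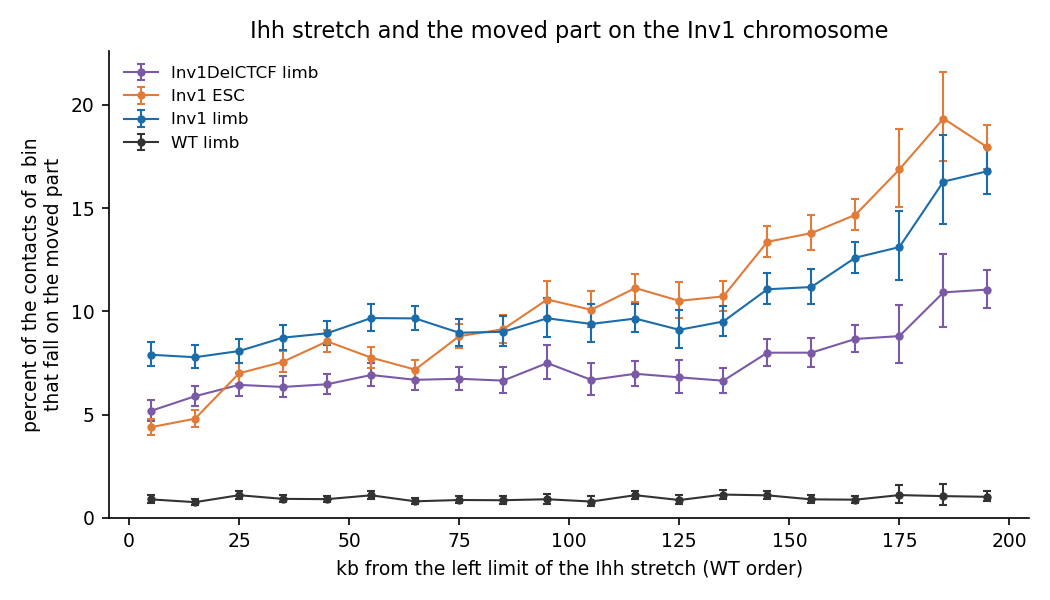
Percent of the contacts of each 10 kb bin of the Ihh stretch that fall on the moved part, in kb from the left limit of the stretch, for Inv1DelCTCF limb buds, Inv1 ESC, Inv1 limb buds and WT limb buds (1 library each), with 95% counting intervals as bars. Inv1DelCTCF lies below Inv1 in all 20 bins, and Inv1 ESC starts at 4.39%, below Inv1 limb buds, and ends above them.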

How the data were processed

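Capture Hi-C was analysed in 7 libraries, 1 per condition, grouped by title. The submitters' processing notes name the build mm9, Juicer and Bowtie2 2.2.6. The deposited maps give 1 contact signal per pair of 10 kb bins from 71 to 81 Mb, Knight-Ruiz balanced by the authors per the file names. Their gene tables give a scaled contact signal per gene, and the scaling is not given in the sources used here. Read pairs were recovered by fitting 1 factor per bin. In the 4 maps without negative values 100.0% of values below 20 pairs lay within 0.1 of a whole number, and the fit was tested on simulated data. Shares are balanced signal summed over the bins of the stretch, as a percent of all contacts of these bins. Pairs within the stretch were thus counted from both ends, and other pairs once. Their 95% intervals are exact Poisson intervals of the recovered pairs (for ratios, exact binomial), and cover counting error only. Distance means used bins with at least 25% of the median number of listed pairs. Named genes were Ihh, the 5 genes on either side, the 5 most alike, the highest gene of each table, Epha4 and the listed hedgehog and limb ligand genes; Mir6352, Rnf25 and the 6 genes of the stretch were singled out after values were seen. Members and lists were chosen with earlier results of these data known. No reads were analysed. Python 3.11.15, numpy 2.4.6, scipy 1.17.1 and matplotlib 3.10.9 were used.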

Additional observations from a re-analysis of the deposited data

How the results depend on the processing

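Of 73 values under alternative settings, 61 kept their direction and their side of a 2-fold change to WT (for the difference to neighbours, the direction and a shift under the far-gene SD). The higher contact of Ihh in Inv1 and Inv2 did so under all settings run, with log2 ratios of 1.10 to 4.36 and 1.40 to 4.84. In Inv3 the log2 ratio was -2.63 with a pseudocount of 0.05 and -1.41 when centred on the median gene, so past 2-fold below WT in both. The negative Inv3 value was set to 0, so the size of these ratios depends on the pseudocount. They do not show a loss of contact, since the step from WT to Inv3 was 0.241 SD of the far genes. In Inv4 it was 0.20 with a pseudocount of 5, 0.94 when centred on the far genes, 0.91 when Epha4 and Mir6352 were left out of them, and -0.072 when centred on the median gene. Against 3 neighbours on either side in place of 5, the Inv2 difference was -0.0875. With 1 further bin on either side the Inv3 share with the moved part was 3.57-fold WT, since the bin added on the left lies on the other side of the breakpoint. The Inv4 share with the moved part was 1.58-fold WT as observed over expected, 2.0-fold with negative values set to 0 and 1.995-fold over 74.96 to 75.11 Mb, and its share with the rest of the domain 1.17-fold as observed over expected. That last setting, the bins 74.96 to 75.11 Mb and the far genes without Epha4 and Mir6352 were chosen after seeing the data. No paired analysis was possible because each condition was 1 library. Counting error limits the WT share with the moved part most, at 1767 read pairs over the whole stretch, and no counting error could be given for Inv2, Inv3 and Inv4.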
